A study of Homo sapiens with 4 samples.

Results

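The HOX genes were followed in Nanopore cDNA libraries of human embryonic stem cells in the naïve and the primed state. The members were 38 protein-coding HOX genes, chosen by symbol from the 62218 genes to which the counted transcripts were assigned. They lay in 4 clusters, HOXA on chromosome 7, HOXB on chromosome 17, HOXC on chromosome 12 and HOXD on chromosome 2, and had 108 annotated transcripts. The annotation matched to the files holds 39 such genes, and the other one was not analysed here.

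HOX genes encode homeodomain transcription factors that tell cells where they lie along the head-to-tail axis. Within a cluster they are numbered by paralog group, and the low-numbered genes at one end are used early and towards the head, the high-numbered genes at the other end late and towards the tail. In pluripotent cells the clusters are known as targets of Polycomb repression, and retinoic acid, CDX factors and Trithorax proteins are known to act on their opening during development.

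All libraries came from H1, an established human embryonic stem cell line labelled WT in both states, and there were 2 libraries per state. The primed cells were grown in mTeSR1 medium on Matrigel under normal oxygen to a confluency of 60 to 70%. The naïve cells had been derived from H1 primed cells. By their label they were grown in the FINE condition after 50% confluency. This is a medium with the kinase inhibitors dasatinib, AZD5438, SB590885 and PD0325901, the ROCK inhibitor Y-27632, LIF, activin A and bFGF, under low oxygen. State, medium, oxygen and confluency therefore cannot be told apart. No label says that the replicates were separate cultures, so that p-values rest on the spread between these libraries, which may be technical. In the edgeR fit that spread was mostly borrowed from the other genes (41.57 prior against 2 residual degrees of freedom). A p-value thus says little about the spread of a gene's own libraries.

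The deposited values are alignments counted over the whole span of each transcript, introns included and strand ignored, and an alignment was counted on every transcript that it overlapped. Each gene was represented by its transcript with the largest mean count. The libraries held between 129276054 and 161548901 counts over all transcripts, and between 23542369 and 30978798 after 1 transcript was kept per gene. Of the 91 HOX transcripts with a count, 40 had the same counts as another transcript of their gene in every library, and for 16 genes the transcript taken was not the canonical one.

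The labelled states were checked against marker genes. All 8 naïve markers (DPPA5, DPPA3, DNMT3L, KLF4, KLF17, TFCP2L1, SUSD2, ARGFX) were called lower in primed cells, although KLF17 was not called when library size was used for scaling, and all 8 primed markers, among them THY1, SFRP2, DUSP6, CD24 and OTX2, were called higher. Of the shared pluripotency genes, SOX2, LIN28A, PRDM14 and SALL4 rose in primed cells, NANOG fell, and POU5F1 was not called with TMM but was called higher with library size. Neural markers (PAX6, NES, DCX) were called higher in primed cells in 3 of 3 tested, although PAX6 was not called with DESeq2 (adjusted p = 0.158), and SOX1 and NEUROG2 had at most 1 count in a library. Among markers of caudal mesoderm and primitive streak, HAND1 was lower and TBX6 higher in primed cells, EOMES and MIXL1 were not called, and TBXT, MSGN1 and MEOX1 were too low to be tested. GATA6 fell and CXCR4 rose among endoderm markers, with GATA4 not called and SOX17 and FOXA2 untested, and the fibroblast genes COL1A1 and COL1A2 rose in primed cells, with COL3A1 and TWIST2 not called and DCN and LUM untested. With library size MIXL1, GATA4 and COL3A1 were called higher in primed cells (edgeR adjusted p = 0.0147, 0.00828 and 0.0213).

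HOX counts were low throughout, and most of them lay in the naïve libraries. At least 1 count was found for 26 members in naïve rep1 and for 30 members in naïve rep2, but for only 8 members in each primed library. Summed over the members, the level was 28.2 and 27.4 CPM (counts relative to library size, scaled by TMM, edgeR's trimmed mean of M-values) in the naïve libraries, and 3.33 and 4.92 CPM in the primed libraries. Some spans overlap, as those of HOXB3 and HOXB4, HOXC6 and HOXC9, and HOXA9 and HOXA10. Alignments in the shared bases were counted on each such member, in these sums and in the numbers of members with a count. There were 20 members with counts in naïve libraries only, 0 with counts in primed libraries only, 13 with counts in both states and 5 with no count in any library. The 5 were HOXA5, HOXA6, HOXA11, HOXC12 and HOXD12, and for them a level of up to 3 counts is possible, which is 0.0978 to 0.130 CPM depending on the library. The reads have no molecular identifiers, so such limits and the intervals below are of counting error alone. In such bulk libraries, fewer cells with a transcript and less RNA per cell cannot be told apart. How many of all genes had counts in naïve libraries only was not computed, so the split is not shown to be particular to HOX genes.

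**Figure D1:**
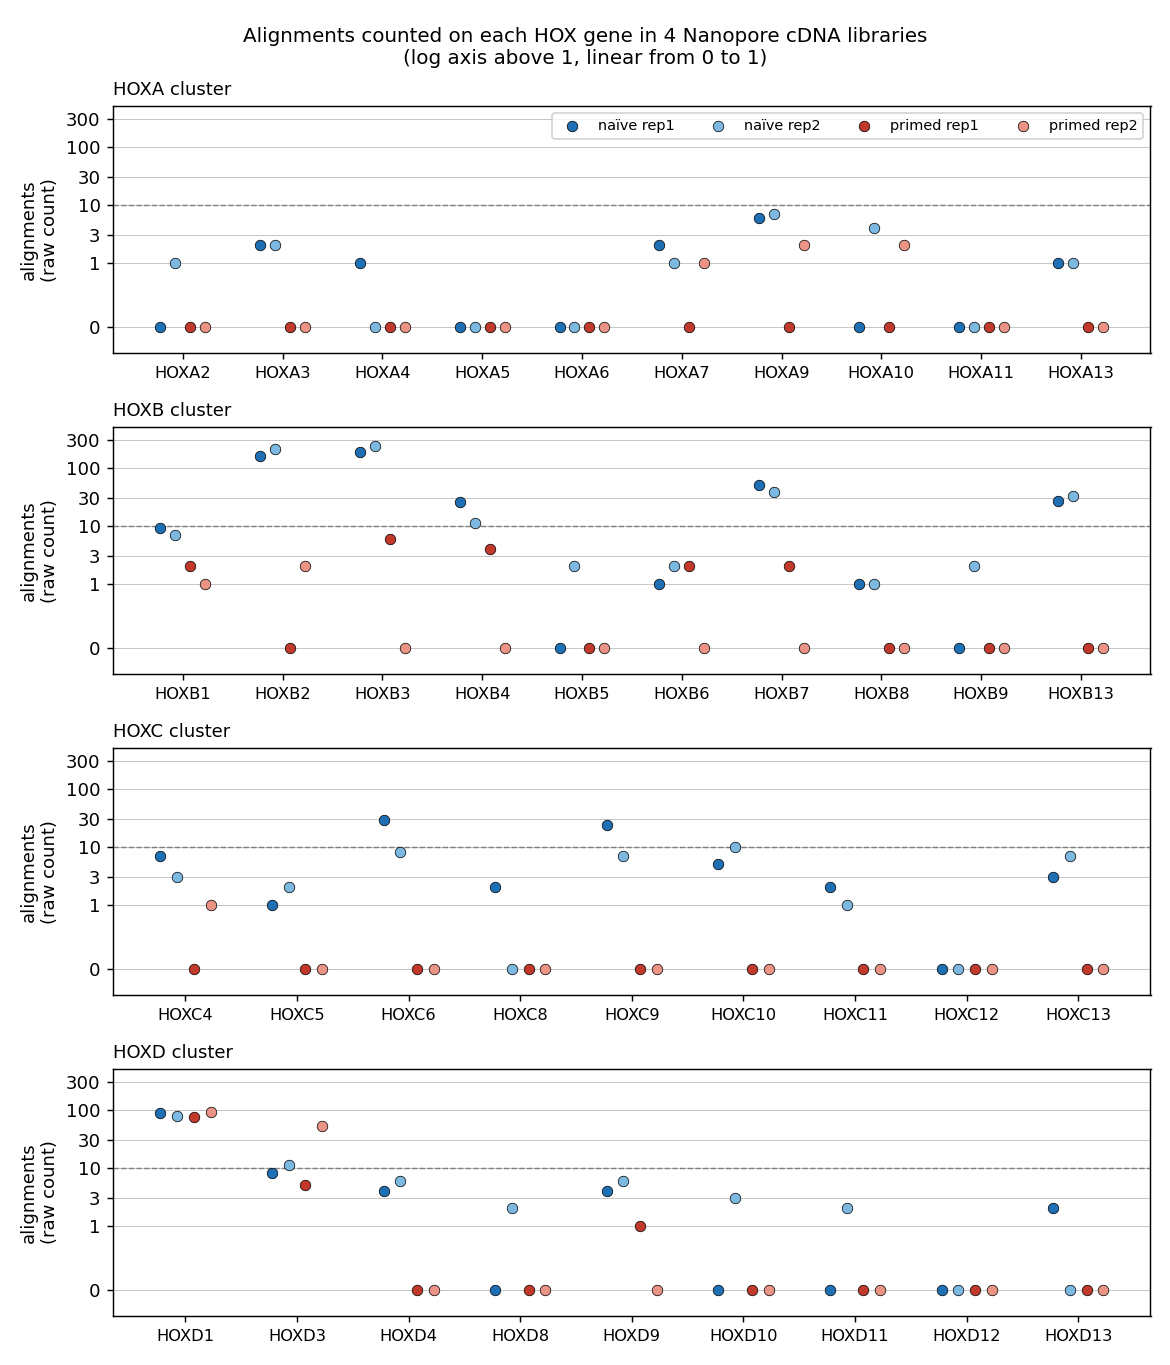
Alignments counted on each of the 38 HOX genes (y axis, raw counts, logarithmic above 1 and linear from 0 to 1) in 4 libraries, with 1 panel per cluster and the genes ordered by paralog number. Blue points are naïve and red points primed libraries, and the dashed line marks 10 counts. HOXB2 and HOXB3 reach 207 and 233 counts in naïve cells and at most 6 in primed cells, whereas HOXD1 has between 76 and 90 counts in all 4 libraries.

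The test needed 10 or more counts in 2 or more libraries, which 7 of the 38 members reached. They were HOXB2, HOXB3, HOXB4, HOXB7, HOXB13, HOXD1 and HOXD3, and no member of the HOXA or HOXC cluster was among them. By the quasi-likelihood test of edgeR, with p-values adjusted over all genes by the Benjamini-Hochberg method, 5 members were lower in primed cells, 1 was higher and 1 was not called. Over all 27634 genes tested, 70.0% were called, 32.6% as lower and 37.4% as higher in primed cells. With library size in place of TMM these shares were 72.5%, 16.3% and 56.2%, and with DESeq2 58.7%, 29.6% and 29.1%. All 5 members called lower passed the filter through the naïve libraries alone and so had to differ, and their number is therefore no measure of how HOX genes behaved in general.

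The members nearest the filter show what it separated. Just inside, HOXB4 had 26 and 11 naïve counts and 4 and 0 primed counts, and HOXD3 had 8, 11, 5 and 52 in the same order. Just outside, HOXC6 had 29 and 8 naïve counts and HOXC9 had 24 and 7, with 0 in both primed libraries for each. The 31 untested members had at most 29 counts in any library and at most 2 in a primed library. All 26 of them with a count had the higher mean CPM in naïve cells, and 24 of the 31 were at 0 in both primed libraries. The same shares among equally sparse genes outside the members were not computed.

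HOXB was the cluster with the most counts, and its genes had few counts in primed cells. HOXB2 (ENSG00000173917), a hindbrain gene at the head end of the cluster, lies on the minus strand at chr17:48542655-48545109. Its transcript HOXB2-201 had 160 and 207 counts in naïve cells and 0 and 2 in primed cells. The groups were far apart, with 7.52 ± 0.83 CPM in naïve and 0.0326 ± 0.0461 CPM in primed cells (SD, n = 2). The log2 fold change, primed minus naïve, was -7.64 (SE 0.45, edgeR adjusted p = 4.26e-19), and the pooled counts gave a level 227 times higher in naïve cells (95% exact interval 62.4 to 1882).

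HOXB3 (ENSG00000120093), the neighbour of HOXB2 and also used in the hindbrain, was highest by count. HOXB3-212, at chr17:48548870-48590241, had 187 and 233 naïve counts and 6 and 0 primed counts. Both naïve libraries lay far above both primed ones, at 8.61 ± 0.73 against 0.102 ± 0.144 CPM (SD, n = 2). The log2 fold change was -6.37 (SE 0.39, edgeR adjusted p = 1.98e-18), and the pooled ratio of naïve to primed was 86.6 (39.5 to 237).

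HOXB4 (ENSG00000182742), known for its role in blood stem cells, lies at chr17:48575507-48578350, within the span of HOXB3-212. It had 26 and 11 counts in naïve cells and 4 and 0 in primed cells, with naïve replicates further apart than those of HOXB2. Its log2 fold change was -3.44 (SE 0.67, edgeR adjusted p = 1.66e-05), and the pooled ratio was 11.4 (4.11 to 44.2). The 4 primed alignments were also counted on HOXB3-212, which encloses them.

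HOXB7 (ENSG00000260027), a gene of the central part of the cluster, had 51 and 38 counts in naïve cells and 2 and 0 in primed cells on HOXB7-203, at chr17:48607627-48633572. The groups did not overlap, and the log2 fold change was -5.61 (SE 0.61, edgeR adjusted p = 6.45e-11), with a pooled ratio of 55.1 (14.8 to 462). The canonical HOXB7-201, which is shorter, had 51, 34, 2 and 0 counts. HOXB7-203 also runs over HOXB8 and HOXB9, which had at most 2 counts in a library, and HOXB7-201 held 95.5% as many naïve alignments as the longer span.

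HOXB13 (ENSG00000159184), the tail-most gene of the cluster and known from prostate and hindgut, lies apart from the others at chr17:48724763-48728750. It had 27 and 33 counts in naïve cells and 0 in both primed libraries. The replicates were close to each other, at 1.23 ± 0.09 CPM (SD, n = 2), and no other gene overlapped the span. With 3 counts allowed in each primed library, the level was at least 12.3-fold lower in primed cells (fitted log2 fold change -8.07, SE 0.91, edgeR adjusted p = 2.49e-10; the fitted value depends on the prior count). Its neighbours PRAC1 and PRAC2, which carry no homeobox and do not overlap HOXB13, had 43 and 21 and 19 and 15 naïve counts, and 0 in both primed libraries.

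The other HOXB genes were sparse in both states. HOXB1, the head-most gene, had 9, 7, 2 and 1 counts in naïve rep1, naïve rep2, primed rep1 and primed rep2, a pooled ratio of 6.60 (1.89 to 35.3). HOXB5, HOXB6, HOXB8 and HOXB9, which lie between HOXB4 and HOXB13, had at most 2 counts in any library. HOXB6 was the only one of these 4 with a primed count, 2 in primed rep1. The primed HOXB counts fell unevenly, since, apart from HOXB1 with counts in both, primed rep1 held the counts of HOXB3, HOXB4, HOXB6 and HOXB7, and primed rep2 those of HOXB2.

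**Figure D2:**
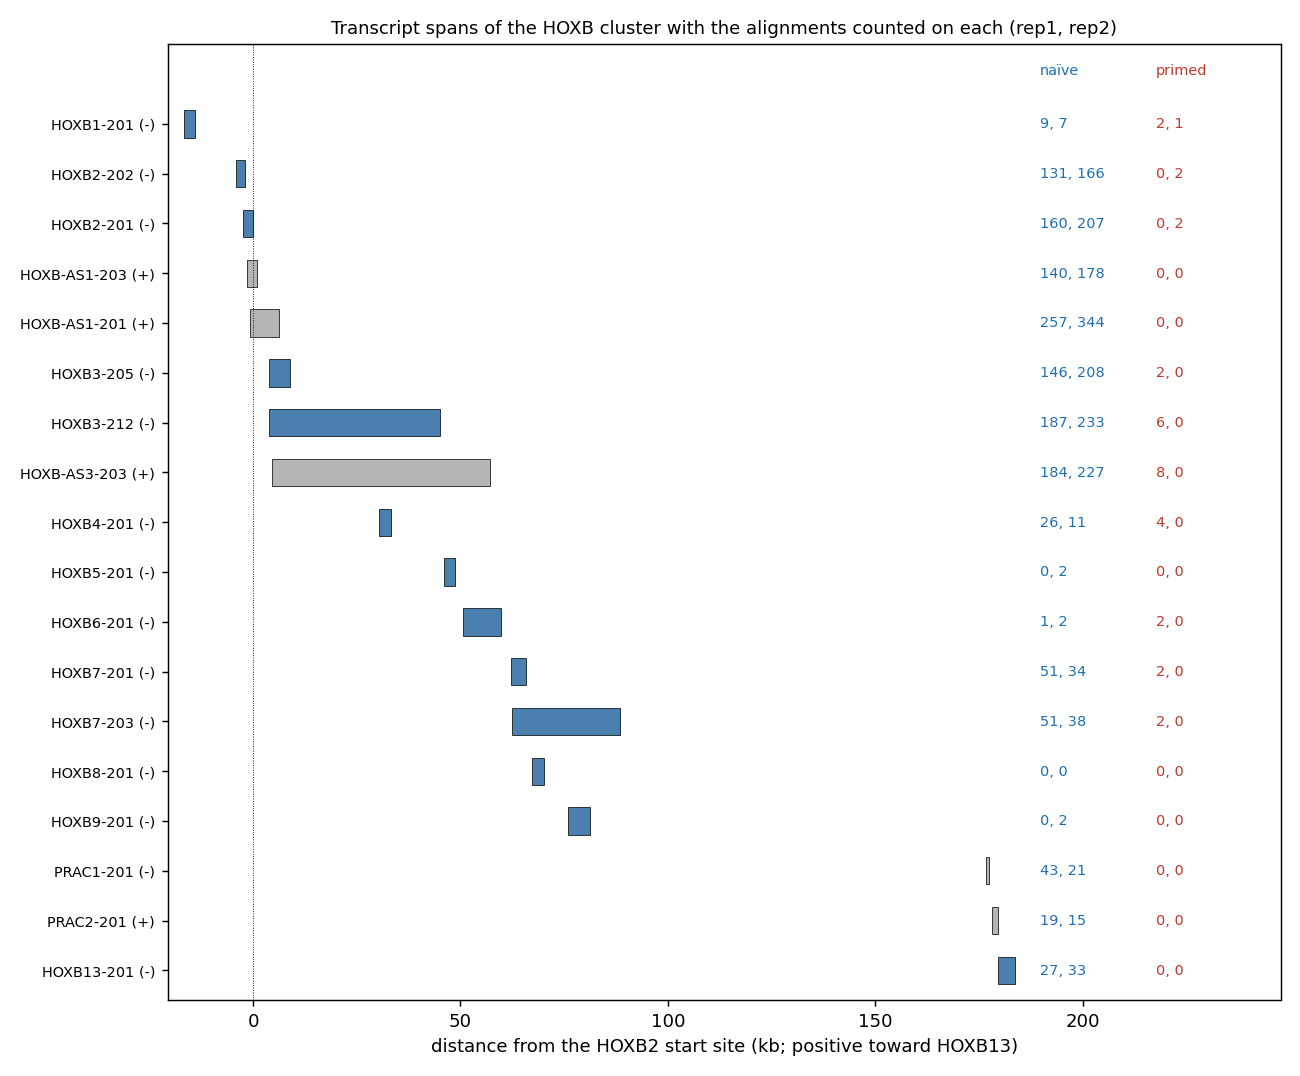
Spans of transcripts of the HOXB cluster (blue) and of neighbouring genes (grey), with distance from the HOXB2 start site in kb on the x axis and the strand in brackets. The numbers at the right are the alignments counted on each transcript, rep1 and rep2, in the naïve and the primed libraries. The short transcripts with over 100 counts in each naïve library lie at HOXB2 and at the 3′ end of HOXB3, HOXB13 stands apart at the far end, and HOXB8 is drawn with its canonical transcript, which has no count.

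Antisense RNAs share much of this region, and the libraries were counted without strand. HOXB-AS1-201, on the plus strand, had 257 and 344 naïve counts and 0 in both primed libraries, and overlapped HOXB2-201 by 759 bases and HOXB3-212 by 2381 bases. HOXB-AS1-203, another transcript of this antisense gene, had 140 and 178 naïve counts and 0 in both primed libraries, and overlapped HOXB2-201 by 1559 bases. Reads of the genes and of HOXB-AS1 cannot be told apart in the shared bases. HOXB2-202, whose span at chr17:48540894-48543146 reaches neither HOXB-AS1-201 nor HOXB-AS1-203, had 131 and 166 naïve counts and 0 and 2 primed counts. HOXB2 was thus also high in naïve cells over a stretch outside these antisense transcripts. Whether other annotated RNAs overlap the whole of that stretch was not checked.

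For HOXB3 the counts came mostly from the 3′ end. HOXB3-205, a short transcript of 5053 bases at the 3′ end, had 146, 208, 2 and 0 counts, and so held 84.3% as many naïve alignments as HOXB3-212. Of these bases, 2381 are shared with the antisense HOXB-AS1-201. The remainder of the long span held 41 and 25 alignments in naïve cells and 4 and 0 in primed cells. HOXB-AS3-203, which runs antisense over 40612 bases of HOXB3-212, had nearly the same counts as that transcript, 184, 227, 8 and 0. Counts of HOXB3, HOXB4 and HOXB-AS3 are therefore not independent of each other.

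Trophoblast markers moved in the same direction as the HOXB genes. Of the 8 markers, 7 were lower in primed cells (GATA2, GATA3, TFAP2A, TFAP2C, CGA, CGB5, ELF5) and KRT7 was not called, with 42, 74, 103 and 81 counts in naïve rep1, naïve rep2, primed rep1 and primed rep2. With library size KRT7 was called higher in primed cells (log2 fold change 1.00, edgeR adjusted p = 0.00263). The summed level of the 8 markers was 2071 and 2405 CPM in the naïve libraries and 7.20 and 7.10 CPM in the primed libraries. CGA, the alpha subunit of chorionic gonadotropin, had 35747 and 47550 naïve counts against 0 and 1 primed counts, and GATA3 had 976 and 1151 against 15 and 16. No marker was at 0 in both primed libraries. CGA, GATA2, TFAP2A and ELF5 passed the filter only through the naïve libraries, so that the direction of their calls was largely set by it. Over all genes tested, 32.6% were called lower in primed cells with TMM. The part of such cells in the HOXB result was not tested.

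HOXD held the only tested member that was not called. HOXD1 (ENSG00000128645), the head-most gene of the cluster, lies on the plus strand at chr2:176188668-176190907 and had 87, 79, 76 and 90 counts in naïve rep1, naïve rep2, primed rep1 and primed rep2. The libraries of the states overlapped in counts, and in CPM the levels were 3.43 ± 0.48 in naïve and 2.76 ± 0.25 in primed cells (SD, n = 2). The log2 fold change was -0.31 (95% interval -0.78 to 0.16, edgeR adjusted p = 0.247), so that a difference was not detectable at this depth. With library size in place of TMM the sign turned, to 0.33 (edgeR adjusted p = 0.224).

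HOXD1 accounted for most of the HOX level left in primed rep1, 2.58 of 3.33 CPM, and for 2.93 of 4.92 CPM in primed rep2. Its counts were nearly equal to those of an unnamed gene on the other strand, ENSG00000279160. It shares 989 bases with the end of HOXD1 and had 86, 80, 78 and 90 counts. The overlap of HOXD1 with HAGLR-215, an antisense RNA with 662, 708, 352 and 479 counts, was 291 bases at the start of HOXD1. Without strand, HOXD1 and these RNAs cannot be told apart in the shared bases.

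HOXD3 (ENSG00000128652), the next gene of the cluster, was called higher in primed cells, but the call rested on 1 library. HOXD3-205, at chr2:176157307-176173098, had 8 and 11 counts in naïve cells, 5 in primed rep1 and 52 in primed rep2. Primed rep1 lay below both naïve libraries, so the groups overlapped, and the levels were 0.389 ± 0.060 CPM in naïve and 0.932 ± 1.08 CPM in primed cells (SD, n = 2). The log2 fold change was 1.26 (SE 0.54, edgeR adjusted p = 0.0355). It was -1.18 without primed rep2 (edgeR adjusted p = 0.200), and DESeq2 did not call the gene (adjusted p = 0.224).

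The excess of primed rep2 came from a single stretch at the 3′ end. HOXD3-203, which starts further upstream and ends at position 176169415, had only 3 counts in primed rep2, against 12, 17 and 6 in the other libraries. HAGLR-217, which begins at position 176173031 on the other strand, had 0. At least 49 of the 52 alignments of primed rep2 therefore lay wholly within the 3615 bases of chr2:176169416-176173030. The antisense transcript HAGLR-201 covers the same stretch and had 14, 15, 5 and 52 counts, so that in primed rep2 its count equalled that of HOXD3-205.

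The promoters of HOXD1 and HOXD3 are shown because they belong to the members with 10 or more counts in a primed library. RefSeq (GRCh38.p14) gave a promoter, from 250 bases before to 50 bases after the start, for 20 of the 38 members. These windows were searched on both strands for TATAAA (in 11.5% of all 35116 promoters of that length), CCAAT (in 34.6%), AGGTCA (in 13.8%) and TAATTA (in 4.84%). The capitals mark CCAAT, read as ATTGG on the strand printed, in both windows, and TAATTA in that of HOXD3. The HOXD1 window is chr2:176188418-176188717 and the HOXD3 window chr2:176157057-176157356, both on the plus strand.
HOXD1: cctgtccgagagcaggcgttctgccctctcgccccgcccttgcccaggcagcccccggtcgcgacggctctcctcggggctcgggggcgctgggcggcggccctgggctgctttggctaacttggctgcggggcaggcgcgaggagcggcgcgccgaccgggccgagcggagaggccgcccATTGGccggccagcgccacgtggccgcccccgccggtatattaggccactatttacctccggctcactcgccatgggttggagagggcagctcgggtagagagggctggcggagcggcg
HOXD3: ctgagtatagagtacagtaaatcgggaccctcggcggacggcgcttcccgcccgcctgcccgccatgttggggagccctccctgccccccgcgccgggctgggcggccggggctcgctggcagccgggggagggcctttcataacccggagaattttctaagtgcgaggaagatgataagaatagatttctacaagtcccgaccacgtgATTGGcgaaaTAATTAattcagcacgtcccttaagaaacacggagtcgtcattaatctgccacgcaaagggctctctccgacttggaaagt

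The HOXD1 window had 36 CpG pairs and a GC content of 74.3%, against medians of 14 pairs and 58.7% over all promoters, and the HOXD3 window had 25 pairs and 58.0%. Neither window held TATAAA or AGGTCA. The HOXD1 window also holds the start of the antisense HAGLR-207, at position 176188531, which had 661 and 708 counts in naïve and 352 and 478 in primed cells. The HOXD3 window ends at position 176157356, upstream of the stretch that held the primed rep2 alignments.

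The other HOXD genes were sparse. HOXD4, which lies inside the span of HOXD3-203, had 4 and 6 counts in naïve cells and 0 in primed cells, at least 2.05-fold lower. HOXD9 had 4 and 6 naïve counts and 1 and 0 primed counts, a pooled ratio of 12.4 (1.76 to 537). HOXD8, HOXD10, HOXD11 and HOXD13, the last of which patterns the digits, had at most 3 counts in any library and none in primed cells.

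**Figure D3:**
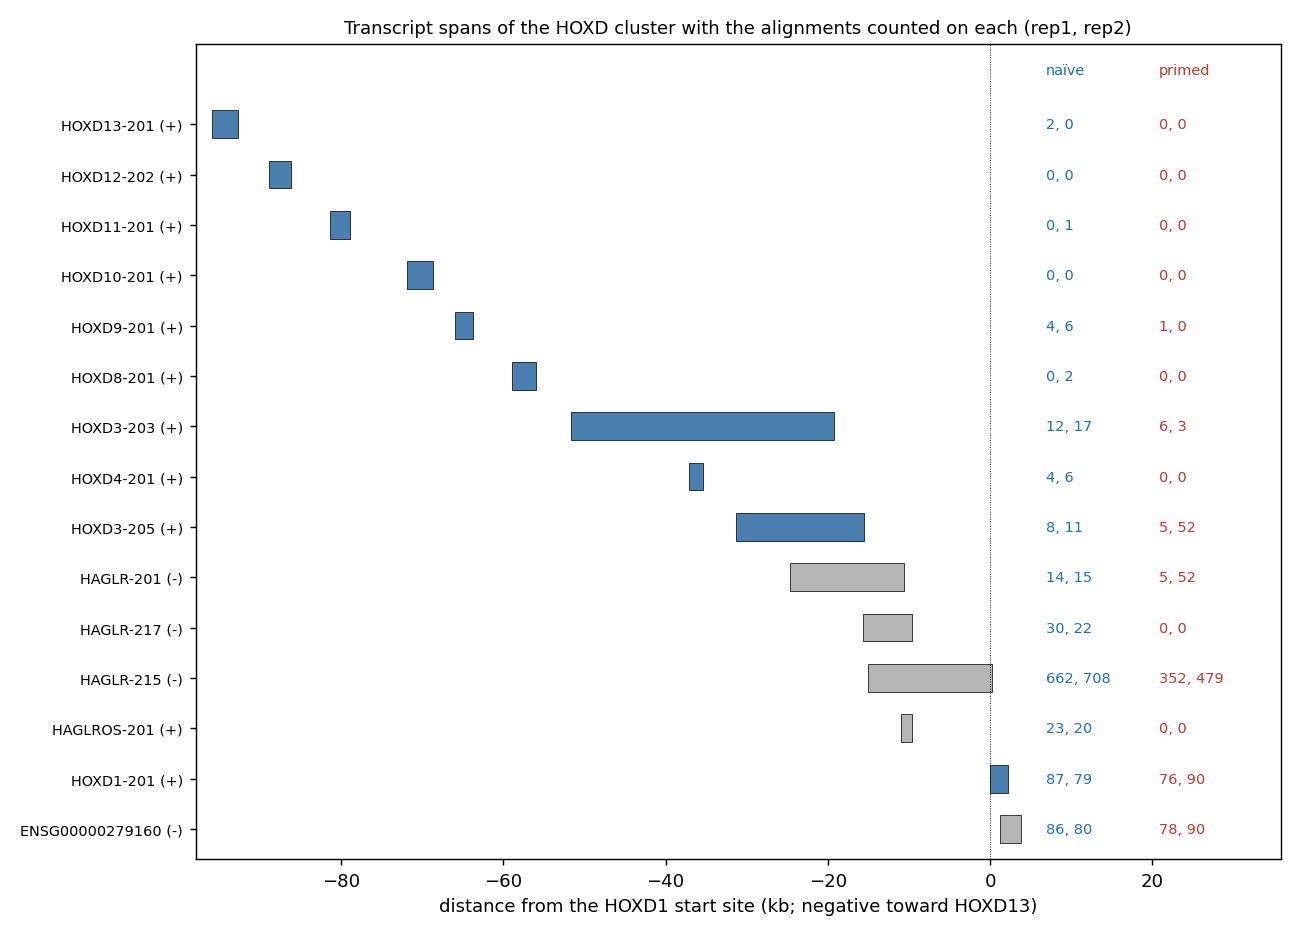
Spans of transcripts of the HOXD cluster (blue) and of neighbouring genes (grey), with distance from the HOXD1 start site in kb on the x axis and the strand in brackets. The numbers at the right are the alignments counted on each transcript, rep1 and rep2, in the naïve and the primed libraries. HOXD1 has 76 to 90 counts in each library, and the 52 counts of primed rep2 on HOXD3-205 recur on the antisense HAGLR-201 and are missing from HOXD3-203.

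In the HOXC cluster no member was tested and primed counts were nearly absent. HOXC6, a gene of the thoracic region, had 29 and 8 counts in naïve cells and 0 in both primed libraries, and HOXC9 had 24 and 7 against 0 and 0. Both genes were higher in naïve rep1 than in naïve rep2. Since HOXC6-203, with the same counts as the transcript taken, encloses HOXC9-202, 83.8% as many alignments lay on HOXC9-202 as on it. The canonical HOXC6-201 had only 3 and 1 naïve counts.

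HOXC10 had 5 and 10 naïve counts and HOXC13, known from hair and nail, had 3 and 7, both with 0 in primed cells. HOXC4 had 7, 3, 0 and 1 counts, and its 1 count was the only one in a primed library among the transcripts taken for HOXC members. These are counts of HOXC4-201, whose span covers HOXC5 and HOXC6-201, and the canonical HOXC4-202 had 0 counts in all 4 libraries. HOXC5, HOXC8 and HOXC11 had at most 2 counts in any library. An unnamed gene on the same strand, ENSG00000273049, runs from within HOXC10 to within HOXC5 and had 35 and 18 naïve counts and 0 primed counts.

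Among the members analysed, HOXA had the lowest counts of the 4 clusters, and the HOX gene not analysed is not part of this ranking. Of its 10 members, 3 were at 0 in every library, and none had more than 7 counts. HOXA9, a gene known from blood stem cells and leukaemia, had 6, 7, 0 and 2 counts, with a pooled ratio of 8.04 (1.82 to 73.4). The span taken for HOXA9 also covers HOXA10, and the canonical HOXA9-201 had 6 and 3 naïve counts and 0 in primed cells. HOXA10, which patterns the uterus and limb, had 0, 4, 0 and 2 counts, and HOXA7 had 2, 1, 0 and 1. For HOXA7 and HOXA10 the intervals of the pooled ratio, 0.298 to 195 and 0.355 to 27.4, include 1. HOXA2, HOXA3, HOXA4 and HOXA13 had at most 2 counts, all in naïve cells.

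By paralog group, most counts of the members analysed lay in the low-numbered groups. Groups 1 to 3 held 4 of the 7 tested members among their 7 genes, groups 4 to 8 held 2 among 15 and groups 9 to 13 held 1 among 16. Summed over its genes, group 3 had the most naïve counts, 197 and 246, followed by group 2 with 160 and 208. Group 1 had 96 and 86 naïve counts and 78 and 91 primed counts, nearly all from HOXD1. Group 12 had none at all. Overlapping members of different groups, such as HOXB3 and HOXB4, share alignments, so that the sums of the groups are not independent. Group 13 had 33 and 41 naïve counts, which came mostly from HOXB13, and 0 primed counts.

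Levels between genes were compared per kilobase of exon of the canonical transcript, with the reservation that the counts cover introns too. They also include reads of antisense RNAs in shared bases, as at HOXB2, HOXB3 and HOXD1. In naïve cells HOXB2 was highest with 4.47 ± 0.49 CPM per kb, followed by HOXB3 with 2.61 ± 0.22, HOXD1 with 1.82 ± 0.25 and HOXB7 with 1.30 ± 0.46 (SD, n = 2). HOXB13, at 0.405 ± 0.029, and HOXB4, at 0.389 ± 0.246 CPM per kb, came next and overlapped in their replicates, as HOXB4 did with HOXC9 at 0.300 ± 0.199. In primed cells HOXD1 was highest with 1.46 ± 0.13 CPM per kb and HOXD3 came next with 0.381 ± 0.440, and every other member had a mean of at most 0.0339. The higher HOXB7 replicate in naïve cells, 1.62 CPM per kb, came close to the lower HOXD1 replicate, 1.64.

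MicroRNA genes lie among the HOX genes and are known to act on HOX messenger RNAs. Their sequences are shown because their hairpins sit inside the spans counted here. The mature sequences below are from RefSeq (GRCh38.p14), with the seed, bases 2 to 8, in capitals. The miR-196 family, known to cleave the messenger RNA of HOXB8, shares 1 seed, and miR-10a has another.
hsa-miR-10a-5p: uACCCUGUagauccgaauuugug
hsa-miR-196a-5p: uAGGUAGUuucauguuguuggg
hsa-miR-196b-5p: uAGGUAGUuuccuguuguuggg

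MIR10A lies on the minus strand inside HOXB3-212, with the mature strand at chr17:48579904-48579926, and its hairpin had 0, 2, 0 and 0 counts. MIR196A1, at chr17:48632532-48632553, lies inside HOXB7-203 on the minus strand, and MIR196A2, at chr12:53991762-53991783, inside HOXC6-203 on the plus strand. MIR196B lies at chr7:27169528-27169549 on the minus strand, inside the span taken for HOXA9. The 3 hairpins of the miR-196 genes had 0 counts in every library, as had MIR10B and MIR615. These are counts of cDNA alignments on the hairpins, not of mature microRNAs.

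Of 24 noncoding RNA genes in the clusters, 5 reached the filter and 5 of 5 were lower in primed cells, against 32.6% of all genes tested. Apart from HAGLR, these 5 passed the filter only through the naïve libraries. HAGLR, beside HOXD1, fell by 1.03 on the log2 scale (SE 0.16, edgeR adjusted p = 2.85e-07), and with library size the log2 fold change was -0.39 (edgeR adjusted p = 0.0316). HOXB-AS1 was at least 123-fold lower in primed cells, and HOXB-AS3 had a pooled ratio of 63.6 (32.0 to 148). HOTAIRM1, beside HOXA2 at the head end of HOXA, had 93 and 97 naïve counts and 0 in primed cells, at least 39.2-fold lower, although HOXA2 itself had 1 count in all. HAGLROS had 23 and 20 naïve counts and 0 in primed cells, at least 8.92-fold lower. HOTAIR, in HOXC, had 2 and 1 naïve counts, and HOTTIP, in HOXA, had 1. HOTAIRM1, HAGLROS, HOTAIR and HOTTIP were picked after their values were seen.

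Genes of the wider HOX system were taken from lists that were set with earlier results of these data known, and they are given as counts and medians. The scaling matters for them, since over all genes tested the median was 0.08 with TMM and 0.72 with library size, a shift of 0.64 on the log2 scale. The calls with both scalings are therefore given. With TMM, 70.0% of all genes tested were called, 32.6% as lower and 37.4% as higher in primed cells. With library size these shares were 72.5%, 16.3% and 56.2%. The calls in each list below are to be read beside these shares and were not tested against them.

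The TALE proteins bind DNA together with HOX proteins, and all 9 were counted well enough to be tested. With TMM, 5 rose and 4 fell in primed cells, with a median of 0.91, and with library size 5 rose and 2 fell. PKNOX2 had 3, 3, 31 and 65 counts and rose by 3.64 on the log2 scale (SE 0.51, edgeR adjusted p = 4.23e-08), and PKNOX1 and MEIS3 rose by 0.95 and 1.31. PKNOX2 passed the filter only through the primed libraries. PBX4 fell by 2.20 and MEIS1, with 282 and 334 naïve and 107 and 155 primed counts, fell by 1.54. MEIS2 and PBX2, at -0.94 and -0.74, were called lower with TMM and were not called with library size.

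CDX factors and retinoic acid act upstream of HOX genes in the trunk. Of 22 such genes 17 were tested, and with TMM 7 rose and 4 fell in primed cells (median 0.30), whereas with library size 12 rose and 1 fell. The retinoic acid binding proteins CRABP1 and CRABP2 rose by 5.31 and 3.60 on the log2 scale (edgeR adjusted p = 2.96e-27 and 1.11e-22), CRABP1 from 74 and 71 to 3647 and 3473 counts. The receptor RARG rose by 3.68, from 3 and 12 to 112 and 129 counts. RDH10, which makes the precursor of retinoic acid, the receptor RARB and the partner receptor RXRB were lower in primed cells with TMM, at -1.27, -1.05 and -0.90, and were not called with library size. Among the CDX genes, picked after their values were seen, CDX1 was lower in primed cells with 20, 31, 1 and 0 counts, and CDX2 had 3, 4, 2 and 2 and was not tested. CDX4 was called higher by edgeR, with 3, 2, 15 and 15 counts, but not by DESeq2 (adjusted p = 0.0659). CDX1 and CDX4 each passed the filter only through the state in which they were higher.

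Polycomb proteins hold HOX genes silent, and all 25 listed were tested. With TMM 6 rose and 14 fell in primed cells (median -0.45), and with library size 11 rose and 4 fell (median 0.18), so that the balance of the list turned with the scaling. CBX6, JARID2 and PHC1 rose by 1.74, 0.90 and 0.83 on the log2 scale, and PCGF1 fell by 2.15, all called with both scalings. RING1 and PCGF6 were lower with TMM, at -0.95 and -0.93, and were not called with library size. The methyltransferase EZH2, picked after its values were seen, had 488, 591, 355 and 433 counts and fell by 0.76 with TMM (edgeR adjusted p = 5.03e-05), but had -0.12 with library size (adjusted p = 0.494).

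Trithorax proteins and H3K27 demethylases counter Polycomb, and all 13 listed, with CTCF among them, were tested. With TMM 3 rose and 8 fell (median -0.45), and with library size 4 rose and 1 fell. KMT2A, MEN1 and KMT2D rose by 0.96, 0.80 and 0.64 on the log2 scale and KMT2C fell by 1.20, all called with both scalings. KDM6B, with 68, 99, 45 and 58 counts, and ASH2L, at -0.93, were lower with TMM and were not called with library size.

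Of 8 ParaHox and other HOX-like homeobox genes 3 were tested, with a median of -2.01 and the same calls with both scalings. All 3 passed the filter only through the state in which they were higher, so that their calls and the median were largely set by the filter. GBX2 and MNX1 were lower, at -2.01 and -2.16 on the log2 scale, going from 29 and 17 to 8 and 6 counts and from 15 and 11 to 3 and 4. GBX1 went from 2 and 2 to 13 and 10 counts, a log2 fold change of 2.16 (edgeR adjusted p = 0.00402) that was not called with DESeq2 (adjusted p = 0.114). EVX1 and EVX2, which sit at the tail ends of HOXA and HOXD, had 0 counts in naïve cells and 1 and 3 and 1 and 0 in primed cells. GSX2 had 1 and 2 and PDX1 had 0 and 1 primed counts, with 0 in naïve cells, and GSX1 had none.

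Genes that flank the clusters but are no HOX genes were listed too. All 17 were tested, and with TMM 2 rose and 10 fell (median -0.47), whereas with library size 6 rose and 3 fell (median 0.17). TTLL6, beside the HOXB cluster, rose by 2.58 and CBX5, beside HOXC, by 1.27 on the log2 scale, and TAX1BP1, beside HOXA, fell by 1.17, all with both scalings. SNX10 and CBX1 were lower with TMM, at -1.07 and -0.75, and were not called with library size. PRAC1 and PRAC2, given above with HOXB13, were the only genes of the list at 0 in a state, and passed the filter only through the naïve libraries.

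**Figure D4:**
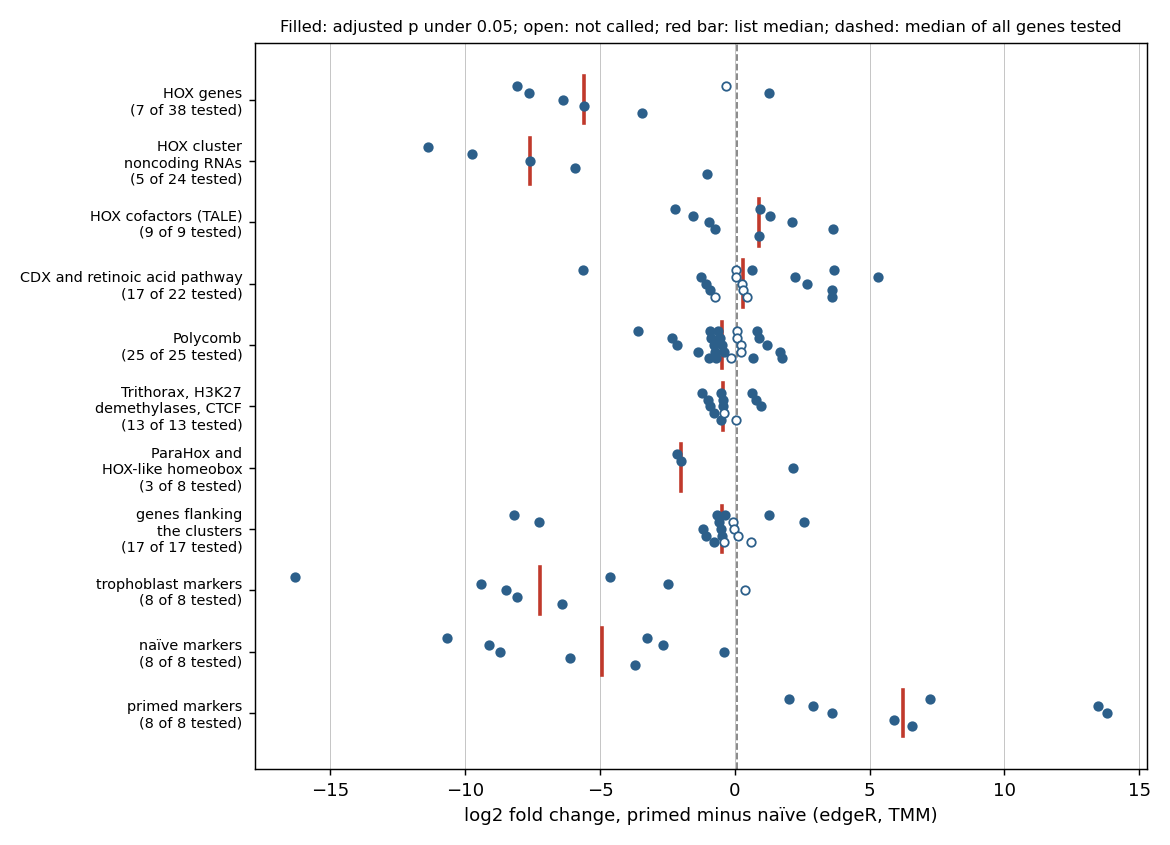
Log2 fold change, primed minus naïve (x axis, edgeR with TMM), of each tested gene in the HOX members and in the lists, 1 point per gene. Filled points have an adjusted p under 0.05, red bars are list medians and the dashed line is the median of all genes tested, 0.08. The fitted values of genes with 0 counts in a state depend on the prior count. The HOX members run from -8.07 to 1.26, and the Polycomb and Trithorax lists, with medians of -0.45, lie close to the dashed line.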

How the data were processed

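Per the labels and the methods of the study, the authors aligned Nanopore cDNA reads of the 4 libraries to GRCh38 with minimap2 and counted alignments per transcript with featureCounts 2.0.0 on the Ensembl release 105 annotation. The deposited values are raw counts, not normalized, over whole transcript spans, unstranded, with an alignment counted on every transcript it overlapped and at every place it aligned. Replicates were not pooled.

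Symbols were taken from GENCODE 44 by transcript identifier for 242542 of 244825 transcripts, and all 108 HOX transcripts had the same position there. The 2283 unmatched transcripts, with 1.0% of the counts, were left out. Genes with 10 or more counts in 2 or more libraries were fitted together in edgeR 4.0.16 (R 4.3.3) with TMM, by quasi-likelihood, two-sided, with state as the term, Benjamini-Hochberg adjustment over all genes tested and a threshold of 0.05. Ratios of pooled counts, scaled by effective library size, have exact 95% intervals. Replicates differed by more than sampling noise, with a chi-square per degree of freedom of 13.2 in naïve and 8.62 in primed cells. The members and the gene lists were chosen with earlier results of these data known. The genes named from the lists are the called genes of largest change, up to 3 per direction, where the mean count was 50 or more, and genes of the lists of at most 9, some of which are not reported here; further genes are marked as picked after their values were seen. The alternatives were DESeq2 1.42.0, library size, no filter and a filter of 50 counts, the canonical or shortest transcript or the sum over transcripts, a log2 fold change beyond 1, the replicate block and each library left out. The edgeR fit was also run on simulated data with 200 changed genes. All of these had higher mean counts than HOXB4, HOXB13 and HOXD3, so the run does not cover such sparse genes. Sequences are RefSeq's. Tables were handled with pandas 2.3.3 and scipy 1.17.1 in Python 3.11.15.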

Additional observations from a re-analysis of the deposited data

How the results depend on the processing

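HOXB2, HOXB3, HOXB4, HOXB7 and HOXB13 kept their direction and their call under every alternative in which they were tested, 13 for HOXB2 and 12 for each of the others, with log2 fold changes of -10.61 to -6.75, -10.83 to -5.37, -7.35 to -2.46, -8.61 to -4.67 and -8.21 to -7.70. These HOXB members passed the filter through the naïve libraries alone, so that the repeats give no separate support for the calls. HOXD1 turned to 0.33 with library size and was not called under any alternative. The HOXD3 call was lost with DESeq2 and with the sum over transcripts (adjusted p = 0.392), and the value turned to -1.18 without primed rep2, so that 0 members were called higher in these 3 settings, with a filter of 50 counts and with the shortest transcript. Without a filter, 15 of 33 HOX members were called, 14 of them lower (19.3% of all genes), and 9 noncoding RNAs. The sum over transcripts gave 10 of 12 members called, 10 of them lower. The sum adds an alignment for every transcript of the gene that it overlaps, so that sparse members reach the filter more easily. The share of all genes called was not computed for the sum or for the filter of 50 counts. A filter of 50 counts left 2 members called, 2 of them lower, 0 ParaHox genes, 0 mesoderm markers and 1 endoderm marker. The shortest transcript gave 3 noncoding RNAs, 4 TALE genes, 7 Trithorax genes and 1 ParaHox gene called. Library size gave 5 called Trithorax genes. A log2 fold change beyond 1 left 36 of 71 called list genes, with 5 TALE, 7 Polycomb, 1 Trithorax and 6 flanking genes. With each library left out in turn, 5 to 6 members were called, 5 of them lower and 0 to 1 higher, and HOXD3 ranged from -1.18 to 2.10; a state then had 1 library, which was assumed to vary like the other state. The replicates shared only a number (correlation of same-numbered deviations 0.0592), and with the replicate block 6 members were called, as without it, with 19680 against 19336 genes called in all and HOXD3 at 1.11. At counts this low, depth limits all statements on the HOXA and HOXC genes.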
